A study of Caenorhabditis elegans with 20 samples.

Results

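The genes *F56A4.3*, *B0511.11*, *F55D12.8*, *nhj-1*, *T05F1.15* and *B0414.10* were chosen by their log2 array signal on the DMSO arrays, which was higher in *ahr-1(ju145)* mutants of *Caenorhabditis elegans* than in the wild-type. They are 6 of the 25478 genes measured by a probe set that names a single gene. Whole-worm RNA was measured by Affymetrix array in 4 groups, each with 5 independent replicates. Wild-type N2 worms and the mutant strain CZ2485, which carries *ahr-1(ju145)*, were grown from eggs to day 3 with 100 µM curcumin, a plant polyphenol, or with 0.1% DMSO, its vehicle, which the curcumin groups also received. Each array held RNA of a pool of worms. The mutant was a single strain, so the allele and any other difference between CZ2485 and N2 cannot be told apart. In whole-worm RNA, fewer cells of a type and less RNA per cell cannot be told apart either.

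AHR-1 is the worm counterpart of the mammalian aryl hydrocarbon receptor, a transcription factor that pairs with AHA-1, the worm ARNT. In *C. elegans* it is best known for its part in the fate and migration of neurons, and unlike the mammalian protein it does not bind dioxin. Of the 6 genes, *nhj-1* has a well described role. Its protein acts with the Ku proteins CKU-70 and CKU-80 and the ligase LIG-4 in non-homologous end joining, which reseals broken DNA ends without a template. *F56A4.3*, *B0511.11* and *T05F1.15* are annotated as protein-coding genes, and *F55D12.8* and *B0414.10* as non-coding RNA genes of 122 and 65 bases.

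The values below are log2 RMA values, the array signal once the background was removed, the arrays were brought to a common distribution and the probes of a set were summarised. A log2 difference of 1 is a doubling. Probe sets differ in how brightly they hybridise, so levels were compared between groups and not between genes. The methods of the study exclude the mutant curcumin array numbered 5, and it was kept out of the fits, which hold 19 arrays. The median log2 RMA value over all probe sets was 4.26, and the markers of germline, intestine, muscle, neurons and adult cuticle were all above it. By limma 0 of the genes in these lists, and 0 of 5 sperm genes, were called between the strains. At an unadjusted p under 0.05, 1 muscle gene was higher in each comparison, 1 sperm gene was higher with DMSO and 0 others differed. Single embryo markers had log2 differences, mutant minus wild-type, of -0.63 to 0.21 with DMSO and -0.86 to 0.21 with curcumin. The 24 embryo markers had a median log2 difference of -0.19 in each comparison. Their mean lay between 6.46 and 6.87 in wild-type and between 6.34 and 6.69 in *ahr-1(ju145)* with DMSO, and between 6.32 and 6.77 against 6.26 and 6.37 with curcumin. In each comparison of the strains 0 of these 24 genes rose and 2 fell, *pha-4* and *nob-1*, where 1.31% of all probe sets fell with DMSO and 0.379% with curcumin. At an unadjusted p under 0.05, 5 of the 24 were lower with DMSO, 7 with curcumin and 0 higher in either. The hypodermal collagen gene *dpy-7* also fell in both, by 0.60 with DMSO and by 0.71 with curcumin on the log2 scale, while the other measured hypodermal gene, *rol-6*, was not called, with differences of -0.02 and 0.04.

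The signal of *ahr-1* itself overlapped between the strains. Its log2 RMA values on the DMSO arrays were 5.20, 4.92, 5.11, 4.96 and 5.45 in wild-type and 4.94, 4.27, 4.90, 4.85 and 4.98 in *ahr-1(ju145)*. On the curcumin arrays they were 4.86, 5.17, 4.88, 5.11 and 5.00 in wild-type and 4.67, 4.29, 4.89 and 4.44 in the mutant. The log2 difference was -0.34 (SE 0.14, limma adjusted p = 0.350) with DMSO and -0.43 (SE 0.15, limma adjusted p = 0.307) with curcumin, and neither passed the threshold of 0.1. The sources used here do not give where the *ju145* change lies relative to the probes, so this probe set does not check the strain labels. AHA-1, the partner of the receptor, was measured too. The log2 difference of *aha-1* was -0.31 with DMSO (SE 0.08, limma adjusted p = 0.0796), which passed, and -0.09 with curcumin (SE 0.09, limma adjusted p = 0.840), which did not.

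With DMSO, all 6 genes were higher in *ahr-1(ju145)* by the way they were chosen. Over all 29317 probe sets, 146 (0.498%) were called higher and 384 (1.31%) lower in this comparison at an adjusted p under 0.1, or 292 and 639 with the replicate number as a block. Among the 111 called genes with a probe set of their own, *F56A4.3*, *B0511.11*, *nhj-1* and *F55D12.8* were the 4 with the largest differences. *B0414.10* and *T05F1.15* ranked 9 and 11. *Y47D3B.20* and 3 more genes outside the choice lay between them and the leading 4. Their log2 differences were 0.81 for *Y47D3B.20*, 0.70 for *K11H3.9* and for *fbxa-2*, and 0.65 for *med-2*. *C04A2.14* with 0.63 lay between *B0414.10* and *T05F1.15*, and *T24D5.3* with 0.61 was the next below. Every mutant array lay above every wild-type array for all 6 genes with DMSO, which was so for 374 (1.28%) of all probe sets.

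The rule of the choice names the DMSO arrays alone, so the strains were compared by a test on the 9 arrays of curcumin-treated worms. Earlier results of these data were known when the genes were picked. The leading 4 are those with the largest DMSO differences, but *B0414.10* and *T05F1.15*, with 0.64 and 0.52 with curcumin, were taken over 5 genes of larger or similar DMSO differences, whose curcumin differences were 0.46, 0.37, 0.27, -0.04 and 0.22. The curcumin values of these 2 may therefore not be independent of the choice. Here *F56A4.3*, *B0511.11* and *nhj-1* rose in *ahr-1(ju145)*, by 3.46-fold, 3.50-fold and 2.07-fold. In this fit, which has no block, *F55D12.8*, *T05F1.15* and *B0414.10* did not pass after adjustment over all probe sets. With the replicate number as a block *B0414.10* passed (limma adjusted p = 0.0932), and *F55D12.8* and *T05F1.15* did not. The fit without a block takes its spread from all 19 arrays. In limma fits of the curcumin arrays alone the adjusted p was 0.00179 for *F56A4.3*, 0.0649 for *B0511.11* and 0.0256 for *nhj-1*. In this comparison 51 (0.174%) of the 29317 probe sets were called higher and 111 (0.379%) lower, beside 3 of the 6 genes called higher. With the replicate number as a block the counts over all probe sets were 121 and 247. Every mutant array lay above every wild-type array for all 6 genes, against 415 (1.42%) of all probe sets. With *T05F1.15* and *B0414.10* this may stem from the choice. For each of *F56A4.3*, *B0511.11*, *F55D12.8* and *nhj-1* an exact two-sided permutation test over the 4 mutant and 5 wild-type arrays gave p = 0.0159, the smallest that its 126 arrangements allow. With the array that was left out, the exact permutation test gave p = 0.00794 for each of these 4, the smallest of 252 arrangements. Both tests shuffle arrays regardless of replicate number, although deviations of equally numbered curcumin arrays correlated at r of 0.0843 to 0.229.

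**Figure D1:**
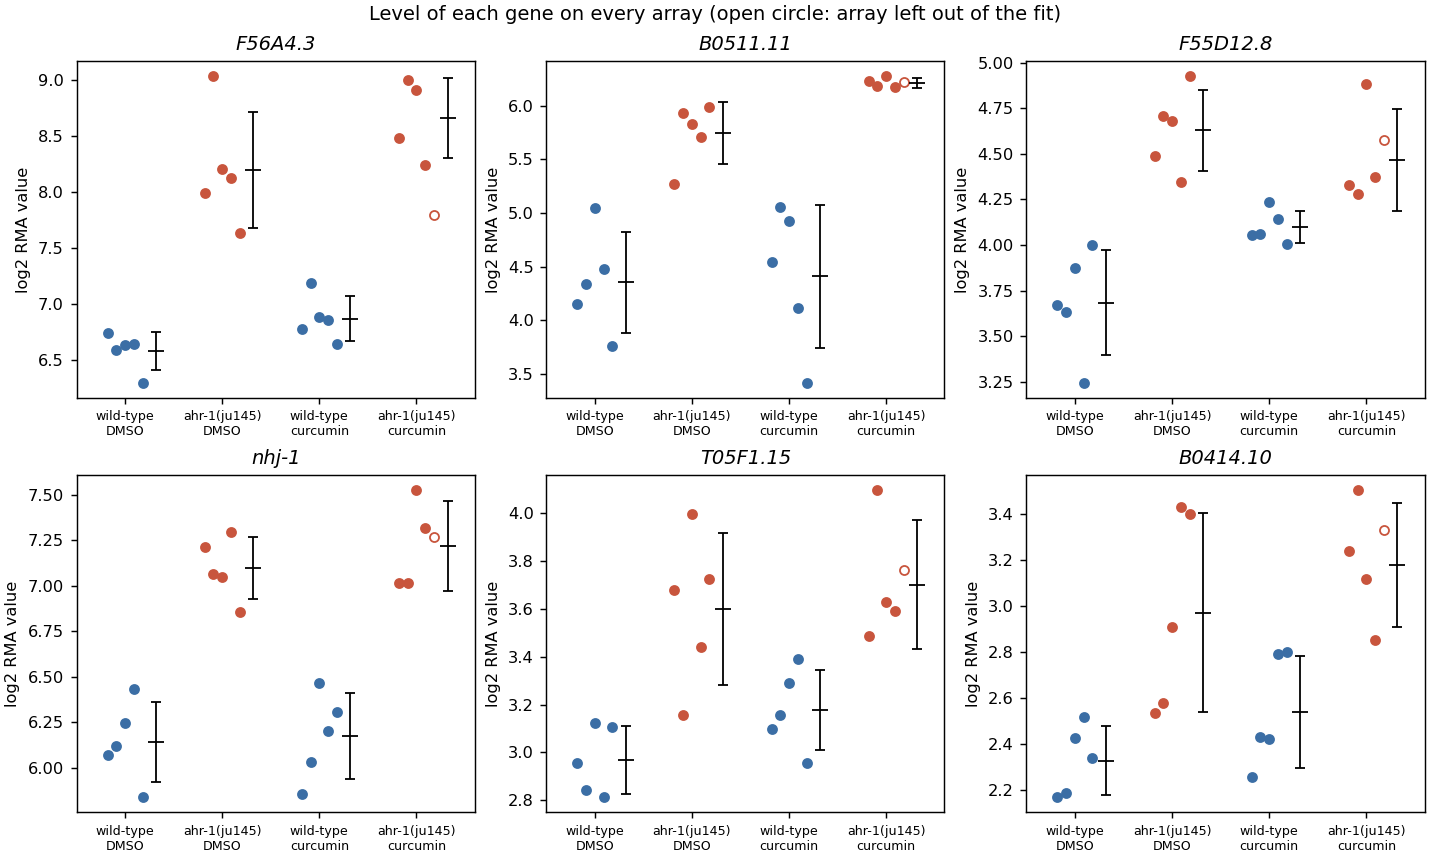
The log2 RMA value (y axis) of each of the 6 genes on every array, 1 panel a gene with its own scale, in wild-type (blue) and *ahr-1(ju145)* (red) with DMSO and with curcumin. Points are arrays, the open circle is the array left out of the fits, and bars are the mean ± SD of the arrays fitted. In every panel the mutant arrays lie above the wild-type arrays of the same treatment.

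*F56A4.3*, on chromosome V, had the largest difference with DMSO among the genes with a probe set of their own, and ranked 6 among all 29317 probe sets. Its log2 RMA values with DMSO were 6.74, 6.59, 6.63, 6.64 and 6.30 in wild-type and 7.99, 9.04, 8.21, 8.12 and 7.63 in *ahr-1(ju145)*. With curcumin they were 6.77, 7.19, 6.88, 6.86 and 6.64 in wild-type and 8.49, 9.003, 8.92 and 8.25 in the mutant. No array of either strain entered the range of the other in either treatment, and mutant replicate 2 was the brightest of its group both times. The log2 difference was 1.62 (SE 0.20) with DMSO. With curcumin it was 1.79 (95% interval 1.35 to 2.23, limma adjusted p = 0.000204). By mean, the groups ran from wild-type with DMSO (6.58 ± 0.17, SD, n = 5) and wild-type with curcumin (6.87 ± 0.20, SD, n = 5) to mutant with DMSO (8.20 ± 0.52, SD, n = 5) and mutant with curcumin (8.66 ± 0.36, SD, n = 4). Within each strain the ranges of the treatments overlapped.

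*B0511.11*, on chromosome I, varied most of the 6 among the wild-type arrays. With DMSO its log2 RMA values were 4.15, 4.34, 5.04, 4.48 and 3.76 in wild-type and 5.27, 5.93, 5.83, 5.71 and 5.99 in *ahr-1(ju145)*. On the curcumin arrays they were 4.54, 5.06, 4.93, 4.11 and 3.42 in wild-type and 6.24, 6.18, 6.28 and 6.17 in the mutant. The 4 mutant curcumin arrays lay close together, between 6.17 and 6.28, and above every mutant DMSO array, while the wild-type curcumin arrays spread from 3.42 to 5.06. The log2 difference between the strains was 1.39 (SE 0.26) with DMSO. On the curcumin arrays it was 1.81 (95% interval 1.23 to 2.38, limma adjusted p = 0.00497). The mean of the embryo markers moved with the strain, and with it as a covariate, an alternative chosen after seeing the data, the curcumin value of *B0511.11* was 1.41 and its limma adjusted p 0.100, no longer past the threshold. Under the same covariate *F56A4.3* kept 1.75 (limma adjusted p = 0.00436) and *nhj-1* 0.90 (limma adjusted p = 0.0281). *B0511.11* overlaps the pseudogene *B0511.2*, whose own probe set differed by 0.12 with DMSO and by -0.13 with curcumin and was not called.

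*nhj-1*, the end-joining gene, is on chromosome V. Its log2 RMA values with DMSO were 6.07, 6.12, 6.24, 6.43 and 5.84 in wild-type and 7.21, 7.07, 7.05, 7.30 and 6.86 in *ahr-1(ju145)*. Under curcumin the values were 5.86, 6.03, 6.47, 6.20 and 6.30 in wild-type and 7.02, 7.02, 7.52 and 7.32 in the mutant. The brightest wild-type array over both treatments, at 6.47, was below the dimmest mutant array, at 6.86. The log2 difference was 0.95 (SE 0.13) with DMSO. Under curcumin it was 1.05 (95% interval 0.75 to 1.34, limma adjusted p = 0.000902). In neither strain did the treatments separate, with differences of 0.03 (SE 0.13) in wild-type and 0.12 (SE 0.14) in the mutant. *nhj-1* overlaps *math-33*, which was not called, with log2 differences of 0.05 and -0.02 between the strains.

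Of the 5 measured genes of end joining, *nhj-1* and *polq-1*, the polymerase of an alternative end-joining route, were called higher with DMSO, where 0.498% of all probe sets were, and *nhj-1* was there chosen by this value. With curcumin *nhj-1* alone was called. At an unadjusted limma p under 0.05, 3 of the 5 were higher with DMSO, *cku-70* among them, and 1 with curcumin. The log2 difference of *polq-1* was 0.26 (SE 0.07, limma adjusted p = 0.0794) with DMSO and 0.12 (SE 0.07, limma adjusted p = 0.651) with curcumin. The Ku genes *cku-70* and *cku-80* and the ligase gene *lig-4* lay between -0.01 and 0.14 in both and were not called. Other repair genes gave no calls in either comparison, among them 12 measured genes of homologous recombination, 8 of break signalling and 9 of mismatch and excision repair. Their median log2 differences lay between 0.02 and 0.08, against 0.02 with DMSO and 0.01 with curcumin over all probe sets. At an unadjusted limma p under 0.05, 2, 1 and 1 genes of these 3 lists were higher with DMSO, 1, 0 and 1 with curcumin, and 0 were lower. Over all 29317 probe sets, 3270 with DMSO and 2589 with curcumin were at such a p in either direction. Of the 46 measured glutathione S-transferase genes, the detoxification enzymes, 0 were called by limma in either comparison, and 2 were higher at an unadjusted p under 0.05 in each.

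*F55D12.8* is a non-coding RNA gene on chromosome I whose mean log2 RMA value was 4.21, just below the median of the series. Its log2 RMA values with DMSO were 3.67, 3.63, 3.87, 3.25 and 4.00 in wild-type and 4.49, 4.71, 4.68, 4.34 and 4.93 in *ahr-1(ju145)*. With curcumin they were 4.06, 4.06, 4.23, 4.14 and 4.00 in wild-type and 4.33, 4.28, 4.88 and 4.37 in the mutant. The wild-type arrays were higher with curcumin than with DMSO, though the lowest curcumin and the highest DMSO array were both at 4.00, and the mutant arrays overlapped between the treatments. The log2 difference between the strains was 0.95 (SE 0.14) with DMSO. On the curcumin arrays it was 0.37 (95% interval 0.06 to 0.68, limma adjusted p = 0.433, unadjusted 0.0217). Mutant replicate 3, at 4.88, lay apart from the other 3 curcumin arrays, and without it the difference was 0.23. By mean, the groups ran from wild-type with DMSO (3.68 ± 0.29, SD, n = 5) and wild-type with curcumin (4.10 ± 0.09, SD, n = 5) to mutant with curcumin (4.47 ± 0.28, SD, n = 4) and mutant with DMSO (4.63 ± 0.22, SD, n = 5).

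*T05F1.15*, a short protein-coding gene on chromosome I, had a mean log2 RMA value of 3.34, below the median of the series and above 29.3% of all probe sets. With DMSO its values were 2.95, 2.84, 3.12, 2.82 and 3.11 in wild-type and 3.68, 3.16, 4.00, 3.44 and 3.73 in *ahr-1(ju145)*. Under curcumin they were 3.10, 3.15, 3.29, 3.39 and 2.96 in wild-type and 3.49, 4.09, 3.63 and 3.59 in the mutant. The strains came close in both treatments, and with DMSO mutant replicate 2, at 3.16, was next to the brightest wild-type array, at 3.12. The log2 difference was 0.63 (SE 0.14) with DMSO. With curcumin it was 0.52 (95% interval 0.21 to 0.83, limma adjusted p = 0.173).

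*B0414.10*, the other non-coding RNA gene, had a mean log2 RMA value of 2.73, far below the median of the series and above 8.0% of all probe sets. Whether *B0414.10* stood above background was not tested. With DMSO its values were 2.17, 2.19, 2.43, 2.52 and 2.34 in wild-type and 2.54, 2.58, 2.91, 3.43 and 3.40 in *ahr-1(ju145)*. With curcumin they were 2.26, 2.43, 2.42, 2.79 and 2.80 in wild-type and 3.24, 3.50, 3.12 and 2.85 in the mutant. Mutant replicates 4 and 5 were well above the other 3 with DMSO, and the gaps between the strains were narrow in both treatments. The log2 difference was 0.64 (SE 0.17) with DMSO. Under curcumin it was also 0.64 (95% interval 0.25 to 1.02, limma adjusted p = 0.183). With the replicate number as a block the curcumin difference was 0.70 (limma adjusted p = 0.0932).

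**Figure D2:**
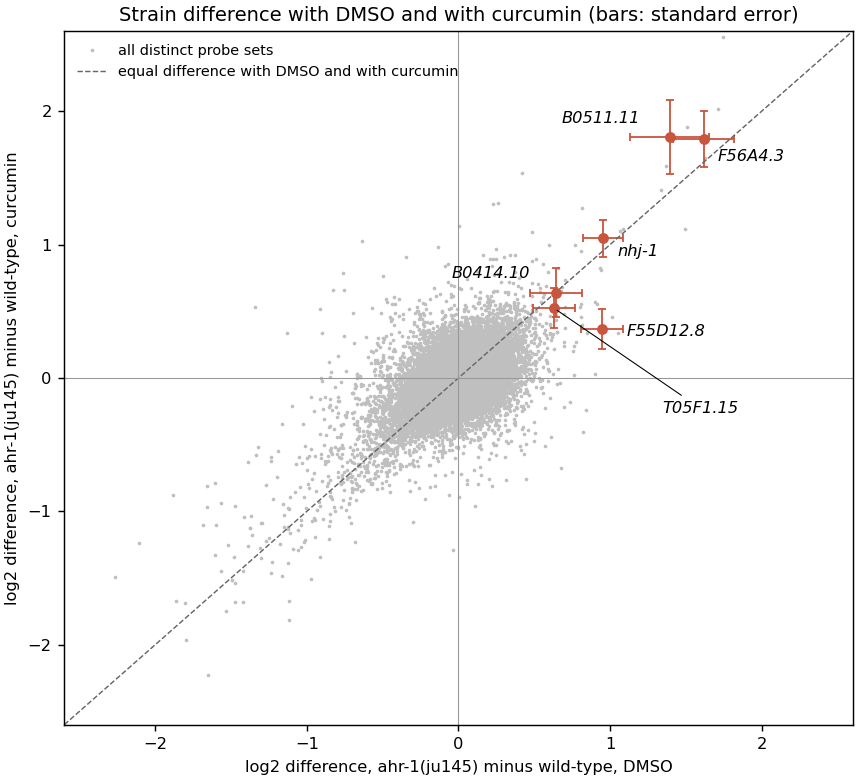
The log2 difference between the strains, mutant minus wild-type, with DMSO (x axis) and with curcumin (y axis), for all distinct probe sets (grey) and the 6 genes (red, bars are standard errors). The rule of the choice used the x values. *F56A4.3*, *nhj-1*, *T05F1.15* and *B0414.10* lie near the dashed line of equal differences. *B0511.11* lies above it, at 1.39 and 1.81, a gap of 0.41 (SE 0.38), and *F55D12.8* lies below it, at 0.95 and 0.37.

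Set against all probe sets by size, *B0511.11* ranked 6, *F56A4.3* 7 and *nhj-1* 23 of 29317 with curcumin. *B0414.10* ranked 95, *T05F1.15* 181 and *F55D12.8* 541. The gap between the treatments in the strain difference was -0.58 (SE 0.20) for *F55D12.8* and 0.41 (SE 0.38) for *B0511.11*. It lay between -0.11 and 0.18 for the other 4. Curcumin minus DMSO was 0.42 (SE 0.14) for *F55D12.8* in wild-type, and between 0.03 and 0.29 for the other 5. In the mutant it was 0.46 (SE 0.21) for *F56A4.3* and 0.47 (SE 0.28) for *B0511.11*, and between -0.16 and 0.21 for the other 4. These values share the DMSO arrays that chose the genes, so they are given as a description with no test.

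Genes called higher in the mutant in both treatments were few. They were 24 probe sets, of which 19 were distinct, or 16.4% of those called higher with DMSO and 47.1% of those called with curcumin, and 0 were called in opposite directions. Of the 19, 6 named a single gene. These were *F56A4.3*, *B0511.11*, *nhj-1* and, with smaller log2 differences, *Y47G7B.2* (0.54 with DMSO, 0.65 with curcumin, limma adjusted p = 0.0448 with curcumin), *R102.6* (0.54 and 0.48, limma adjusted p = 0.0413) and *Y38F1A.13* (0.40 and 0.42, limma adjusted p = 0.0956). A further 12 carried the symbols of several genes, and 1 carried none.

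All 12 of the probe sets with several symbols lay around *F56A4.3*. In the gene order of the reference table, this gene stands between 2 runs of genes on chromosome V, 26 measured genes before it and 25 after it. In these runs, 24 genes before *F56A4.3* each share a probe set with a gene after it, most often 27 genes further on, so the arrays cannot tell the 2 partners apart and no value is given for either alone. The runs were noticed after their values had been seen. They hold 31 distinct shared probe sets, whose symbols include families of chemoreceptors (*str*, *srd* and *srt*), C-type lectins (*clec*) and monocarboxylate transporters (*mct*). With DMSO 12 of the 31 were called higher, and with curcumin 14, while limma called 0 lower. Of the 13 with a mean above the series median, 11 were called higher with DMSO and 13 with curcumin. Of the 18 below it, 1 was called with DMSO and 1 with curcumin. This mean includes the mutant arrays. Among all 14611 probe sets above the median, 62 were called higher with DMSO and 31 with curcumin. With the embryo marker mean as a covariate 12 of the 31 were called with DMSO and 11 with curcumin. The 12 higher in both, which come from 9 of the 24 gene pairs, had log2 differences of 0.81 to 1.75 with DMSO and of 0.81 to 2.56 with curcumin. In each of them every mutant array lay above every wild-type array in both treatments, which their calls make likely. Over the 31 this was so for 12 with DMSO and 15 with curcumin, against 1.28% and 1.42% of all probe sets. In wild-type worms curcumin and DMSO differed by -0.09 to 0.09 for these 12, and in the mutant by -0.46 to 0.76.

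Whether CZ2485 and N2 carry the same number of copies of *F56A4.3* and of the genes in these runs was not tested. Shared probe sets elsewhere on the arrays gave 1 higher call with DMSO and 0 with curcumin among 479. The 6 probe sets in the runs that name a single gene, besides that of *F56A4.3*, were not called by limma (1 with DMSO and 2 with curcumin at an unadjusted p under 0.05), with log2 differences of -0.05 to 0.32 with DMSO and 0.07 to 0.43 with curcumin. The mean log2 RMA values of these 6 ran from 2.61 to 6.59, and most were below the series median. Below that median, 1 of the 18 shared probe sets was called higher in each comparison. Among the 6, *irld-35* showed a disagreement between probe sets of a gene. Its own probe set differed by 0.24 with DMSO and 0.07 with curcumin, while the one it shares with its partner in the other run differed by 1.75 and 2.56. The own probe set had a mean log2 RMA value of 3.67, below the series median, against 4.61. Both means include the mutant arrays, so the higher mean of the shared probe set carries its strain difference. The nearest single-symbol gene on the other side, *F56A4.13*, a non-coding RNA gene, differed by 0.32 and 0.21. Beyond the runs, up to 40 measured genes on each side, 0 of 28 probe sets were called by limma in either comparison. At an unadjusted p under 0.05 there were 2 in each. Most of these 28 had a mean log2 RMA value below the series median, and they were not split by level. Within the groups, the arrays' deviations of *F56A4.3* correlated with those of the 12 shared probe sets at r of -0.09 to 0.70.

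**Figure D3:**
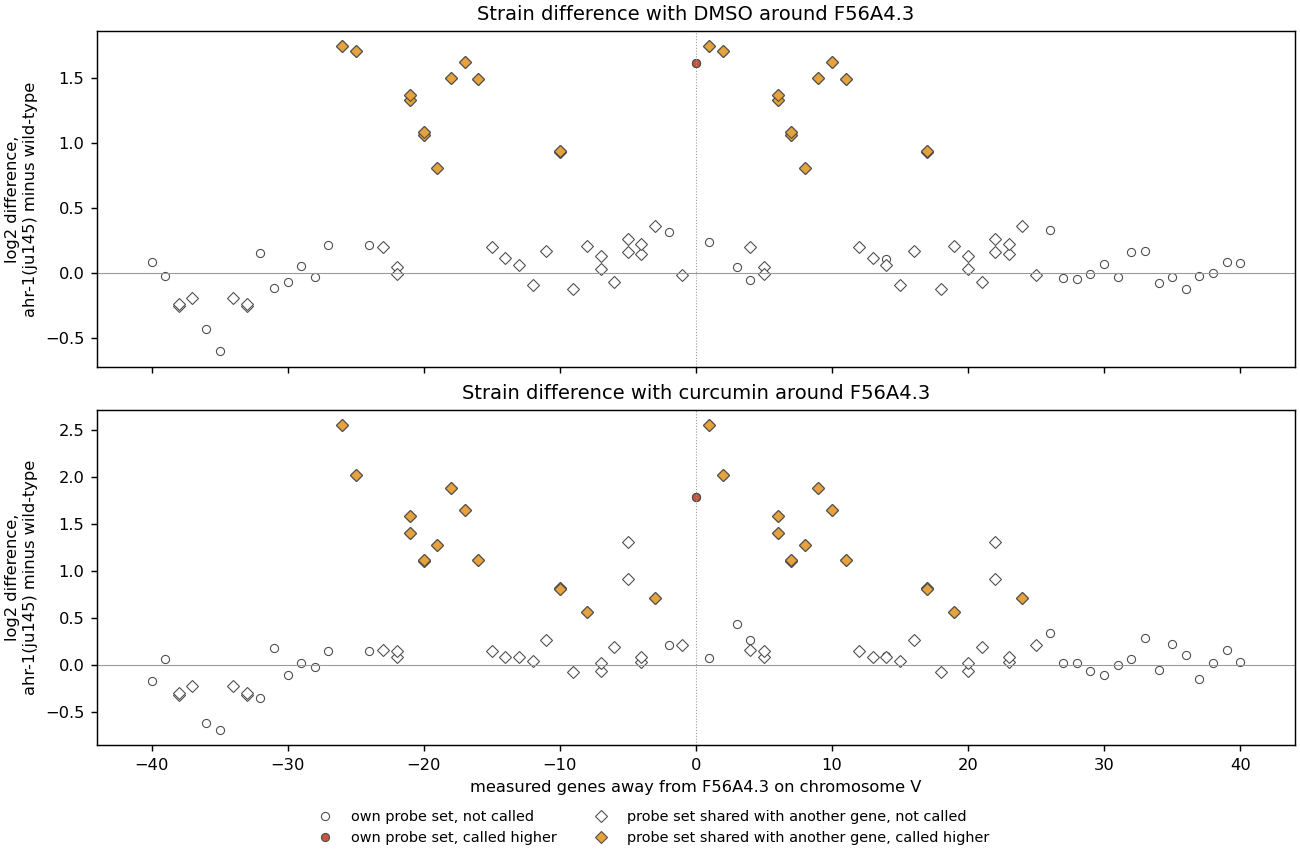
The log2 difference between *ahr-1(ju145)* and wild-type (y axis) with DMSO (top) and with curcumin (bottom) against the place of each gene in the order of measured genes around *F56A4.3* (x axis, 0 is *F56A4.3*). Circles are probe sets that name 1 gene, diamonds are probe sets shared by several genes and drawn once at each, and filled symbols were called higher at an adjusted p under 0.1. The same pattern of filled diamonds stands on both sides because the partners share their probe sets, and the symbols beyond 26 genes before and 25 genes after are open.

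No such run was seen at the other 5 genes. Within 8 measured genes on each side of *B0511.11*, *F55D12.8*, *nhj-1*, *T05F1.15* and *B0414.10*, limma called 0 of the 16 probe sets of each in either comparison of the strains. Between 1 and 3 of each 16 with DMSO, and 0 to 4 with curcumin, were at an unadjusted p under 0.05. Their log2 differences lay between -0.32 and 0.42 with DMSO and between -0.34 and 0.51 with curcumin, with the extremes at neighbours of *B0511.11*. The nearest genes, such as *fbxa-125* before *B0511.11* (0.27 and 0.32), *F55D12.1* before *F55D12.8* (-0.31 and 0.03), *mboa-2* after *nhj-1* (0.09 and 0.09), *T05F1.9* after *T05F1.15* (0.26 and 0.13) and *rnt-1* after *B0414.10* (-0.22 and 0.22), were not called.

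**Figure D4:**
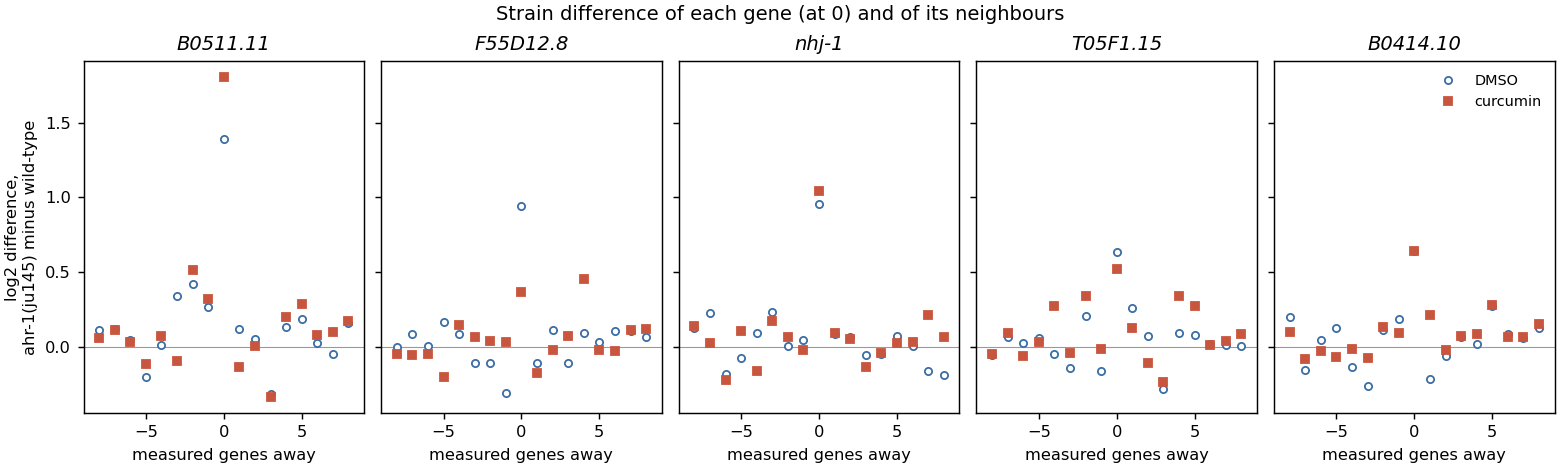
The log2 difference between *ahr-1(ju145)* and wild-type (y axis) of *B0511.11*, *F55D12.8*, *nhj-1*, *T05F1.15* and *B0414.10* (at 0 on the x axis) and of the 8 measured genes on each side in gene order, with DMSO (open circles) and with curcumin (squares). Each chosen gene stands above its neighbours with DMSO, and with curcumin *F55D12.8*, at 0.37, does not stand above all of its neighbours.

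*B0511.11*, *F55D12.8*, *T05F1.15* and *B0414.10* are on chromosome I, as is *ahr-1*. In gene order *T05F1.15* is 57 measured genes from *ahr-1*, *B0511.11* 354, *F55D12.8* 433 and *B0414.10* 1009. Chromosome I had the lowest share of higher calls with DMSO and a middle share with curcumin. With DMSO 11 of its 3265 single-gene probe sets (0.337%) were called higher, and on the other chromosomes the share ran from 0.386% on X to 0.506% on II. With curcumin the share was 0.0919% on chromosome I and ran from 0.0318% on III to 0.183% on X. Of the 200 probe sets within 100 measured genes of *ahr-1*, 2 were called higher with DMSO, *T05F1.15* among them, and 0 with curcumin. Going outward, the next band of 291 probe sets held 2 higher calls with DMSO, the following 491 held 3, and the 2283 farthest held 4. With curcumin these bands held 0, 1 and 2. From nearest to farthest, lower calls numbered 2, 7, 10 and 26 with DMSO and 2, 0, 3 and 8 with curcumin. Higher calls with DMSO were denser in each nearer band than in the farthest, but they are few and include the 4 chosen genes. An effect of distance from *ahr-1* was not tested.

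Across the 19 arrays the 6 genes varied together, with Pearson's r between pairs of them of 0.60 to 0.89. All arrays share the strain difference that chose the genes. In deviations from the group means, r lay between -0.26 and 0.33. The genes whose pattern over the 19 arrays was most like each of the 6 were found in the same way. They are the highest r in a search of the genes with a single symbol, so a high r is part of their choice. *T26A8.4* was most like *F56A4.3* (r = 0.92, and 0.64 in deviations from the group means), and *tmem-132* most like *B0511.11* (r = 0.93 and 0.77, but 0.63 over 20 arrays with the one left out). *Y52B11A.3* was most like *F55D12.8* (r = 0.84 and 0.55), and *R102.6* most like *nhj-1* (r = 0.84 and 0.07). *ZK617.22* was most like *T05F1.15* (r = 0.88 and 0.89), and *fipr-10* most like *B0414.10* (r = 0.82 and 0.79, but 0.77 over 20 arrays). These 2 likenesses were about as close within the groups as over the 19 arrays, though *T05F1.15* and *B0414.10* are dim. Of the 6 genes named as most alike, *R102.6* was called in both comparisons of the strains and the other 5 in neither. The next in likeness were *tmem-132* and *D1054.3* to *F56A4.3* (r = 0.90 and 0.89), *T26A8.4* and *R102.6* to *B0511.11* (0.89 and 0.86), *T19D2.6* and *F52E1.3* to *F55D12.8* (0.83 each), *Y43F8B.1* and *sod-3* to *nhj-1* (0.83 and 0.82), *strl-1* and *B0391.13* to *T05F1.15* (0.84 and 0.83), and *mmaa-1* and *F15A2.13* to *B0414.10* (0.82 and 0.81).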

How the data were processed

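Per the labels and the methods of the study, the authors processed the arrays with RMA in the oligo package, checked their quality with arrayQualityMetrics and compared groups with limma. The values used are the deposited log2 RMA values of 20 arrays, which the authors made and which were not normalized again. The authors' deposited tables of called probe sets hold their own comparisons, as log2 fold changes, p-values and limma's scores, and were not used. The sources used here do not give the genome build of the array annotation. Names came from the platform annotation where a probe set carries 1 symbol (25546 probe sets, against 646 with several and 3125 with none). Gene order and biotype came from a RefSeq gene table, in which 25495 of these were found, and no coordinates are printed. *clec-209*, *C01B4.6* and *C01B4.7* have no probe set of their own, so no value is given for them.

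All 29317 probe sets were fitted with limma 3.58.1 in R 4.3.3, with a mean per group over 19 arrays, no block (15 residual and 3.38 prior degrees of freedom), Benjamini-Hochberg adjustment over all probe sets and a threshold of 0.1. Intervals are at 95%. The number of arrays limits the precision. The script was also run on simulated arrays with known differences. The 6 genes and the gene lists were chosen with earlier results of these data known. Genes named besides are *ahr-1*, list members called in either strain comparison, the nearest measured neighbours, the 3 genes most alike to each of the 6, and those called higher in both treatments. Beyond this rule, repair genes below the threshold and the genes near the limit of the choice were named after their values were seen. For a list gene with several probe sets the brightest was taken.

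The labels number the replicates 1 to 5 in each group. Deviations from the group means of equally numbered arrays correlated at r of 0.114 to 0.431 in the 5 pairs with DMSO. With curcumin r was 0.0843 to 0.229. The counts of both comparisons are therefore also given with the replicate block. Alternatives were all 20 arrays, the 2 compared groups alone, the replicate block, weights per array, further normalization or centring, limma's robust and trend settings, removal of dim probe sets, single-symbol probe sets alone, a threshold of 0.05, a log2 difference of at least 0.5, identical probe sets counted once and each array left out. The mean of the embryo or sperm markers as a covariate was added after seeing the data.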

Additional observations from a re-analysis of the deposited data

Results flagged for a closer look

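*F55D12.8* in mutant curcumin replicate 3 was at a log2 RMA value of 4.88, far above the 3 other arrays of its group. *ahr-1* in mutant DMSO replicate 2 was at 4.27, far below the 4 other arrays. These were the 2 single arrays that stood apart among 28 groups of values examined, and chance alone sets apart about 1 in 20 groups.

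The mutant curcumin array that was kept out of the fits (replicate 5) had log2 RMA values of 7.80 for *F56A4.3*, 6.22 for *B0511.11*, 4.58 for *F55D12.8*, 7.27 for *nhj-1*, 3.76 for *T05F1.15* and 3.33 for *B0414.10*. Each lay above every wild-type array with curcumin. For *F56A4.3* it was the lowest mutant value with curcumin.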

How the results depend on the processing

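With curcumin, *F56A4.3* and *nhj-1* passed and *F55D12.8* and *T05F1.15* did not pass under any alternative run, with log2 differences of 1.62 to 1.93, 0.90 to 1.12, 0.23 to 0.43 and 0.39 to 0.59. *B0511.11* (1.41 to 1.97) passed in all but the fit with the embryo marker mean as a covariate (1.41). *B0414.10* (0.49 to 0.75) passed with the replicate block alone (0.70, adjusted p = 0.0932). No direction was reversed. The limma adjusted p ranged from 6.91e-06 to 0.00436 for *F56A4.3*, 0.00121 to 0.100 for *B0511.11*, 0.000206 to 0.0281 for *nhj-1*, 0.167 to 0.747 for *F55D12.8*, 0.105 to 0.428 for *T05F1.15* and 0.0932 to 0.563 for *B0414.10*. The filter on dim probe sets removes *F55D12.8*, *T05F1.15* and *B0414.10*, which then have no value.

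Counts over all probe sets moved more, and the cause was not tested. From 51, the number higher with curcumin was 78 with all 20 arrays, 26 with the compared groups alone, 121 with the replicate block, 80 with array weights, 24 with single-symbol probe sets, 29 at an adjusted p under 0.05 and 23 with the embryo covariate. From 111, the number lower was 15 with the groups alone, 247 with the block, 68 after a further quantile normalization, 173 with the filter on dim probe sets, 32 at 0.05 and 9 with the embryo covariate. With DMSO, from 146 higher, it was 292 with the block, 61 at 0.05, 60 with a log2 difference of at least 0.5 and 86 with the embryo covariate. From 384 lower, it was 639 with the block, 181 at 0.05 and 106 with the embryo covariate. Single arrays left out changed these counts to between 26 and 74 higher and 16 and 268 lower with curcumin, and to between 56 and 181 higher and 85 and 486 lower with DMSO. The moves over 1.5 times with curcumin came without wild-type curcumin replicates 1 (26 higher, 22 lower), 2 (30, 20), 3 (268 lower) and 5 (33, 29), mutant curcumin replicates 1 (16 lower), 2 (33, 45), 3 (27, 20) and 4 (71 lower), or wild-type DMSO replicate 2 (68 lower). With DMSO they came without wild-type DMSO replicates 1 (56 higher, 85 lower), 2 (86 higher) and 5 (93, 134), or mutant DMSO replicates 1 (90, 253), 2 (95, 196), 3 (66, 135) and 5 (83 higher). The 31 shared probe sets around *F56A4.3* were counted after seeing the data. Of them, 12 were higher in both with all 20 arrays, the replicate block, array weights, further normalization or centring, and limma's robust and trend settings. It was also 12 with the sperm covariate and with each array left out, and 11 with the embryo covariate. No such count is given for the compared groups alone or for the stricter thresholds. With curcumin, deviations of equally numbered arrays correlated at r of 0.0843 to 0.229, and each array was most like its own number. The main fit has no block all the same. A search of promoters for a receptor binding motif was not run, as no sequence was used here.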
